A study of Mus musculus with 6 samples.

Results

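Itaconate, nitric oxide and arginine metabolism was followed through 7 genes, Acod1, Nos2, Gch1, Ass1, Slc7a2, Arg1 and Arg2, out of 54660 rows in the deposited gene table. They were taken by gene name, and all 7 passed the expression filter that left 13080 genes. The macrophages were grown from the bone marrow of C57BL/6 mice aged 6 to 8 weeks. The 3 libraries labelled Xbp1FL/FL (floxed alleles, called WT) were set against 3 labelled Xbp1M-KO (called KO). Xbp1 encodes a transcription factor that endoplasmic reticulum stress activates. Every culture had received lipopolysaccharide (LPS), a bacterial cell wall component, for 6 h, so no unstimulated level was analysed here. The sources do not name the Cre line, the floxed exon or the mouse behind each library, so the tests below measure how libraries of a genotype vary, which may be technical variation.

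Activated macrophages redirect central metabolism. ACOD1 diverts cis-aconitate from the citric acid cycle into itaconate, which has antibacterial activity and inhibits succinate dehydrogenase. NOS2, the inducible nitric oxide synthase, turns arginine into nitric oxide and citrulline, and depends on tetrahydrobiopterin (BH4), whose synthesis starts with GCH1. SLC7A2 imports arginine, ASS1 acts with ASL to rebuild arginine from citrulline, and the arginases ARG1 and ARG2 compete for arginine by splitting it into ornithine and urea.

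The transcripts of the itaconate and nitric oxide enzymes were lower in KO, those of arginine import and citrulline recycling were higher, and the arginases did not pass the test. Acod1, Nos2 and Gch1 fell, to 0.738, 0.659 and 0.591 times their WT means. Slc7a2 and Ass1 rose, to 1.67 and 1.19 times. Thus 3 of the 7 were called lower, beside 29.8% of all genes tested, and 2 were called higher, beside 31.5%. In all 5 of 7 were called where 61.3% of all genes were, and the same 5 had genotypes that did not overlap where 65.9% of all genes had, both shares close to the background. The median log2 fold change of the 7 was -0.16, and that of all genes tested was -0.0016. The median of the 7 is itself the value of an arginase, and it turned to 0.06 with the GC and length trend described below removed, stood at -0.04 with library totals as the scaling, and was -0.25 without WT replicate 1 and -0.07 without WT replicate 3. A call means a Benjamini-Hochberg adjusted p under 0.05 in edgeR's quasi-likelihood test across all genes, and a positive log2 fold change means higher in KO.

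**Figure D1:**
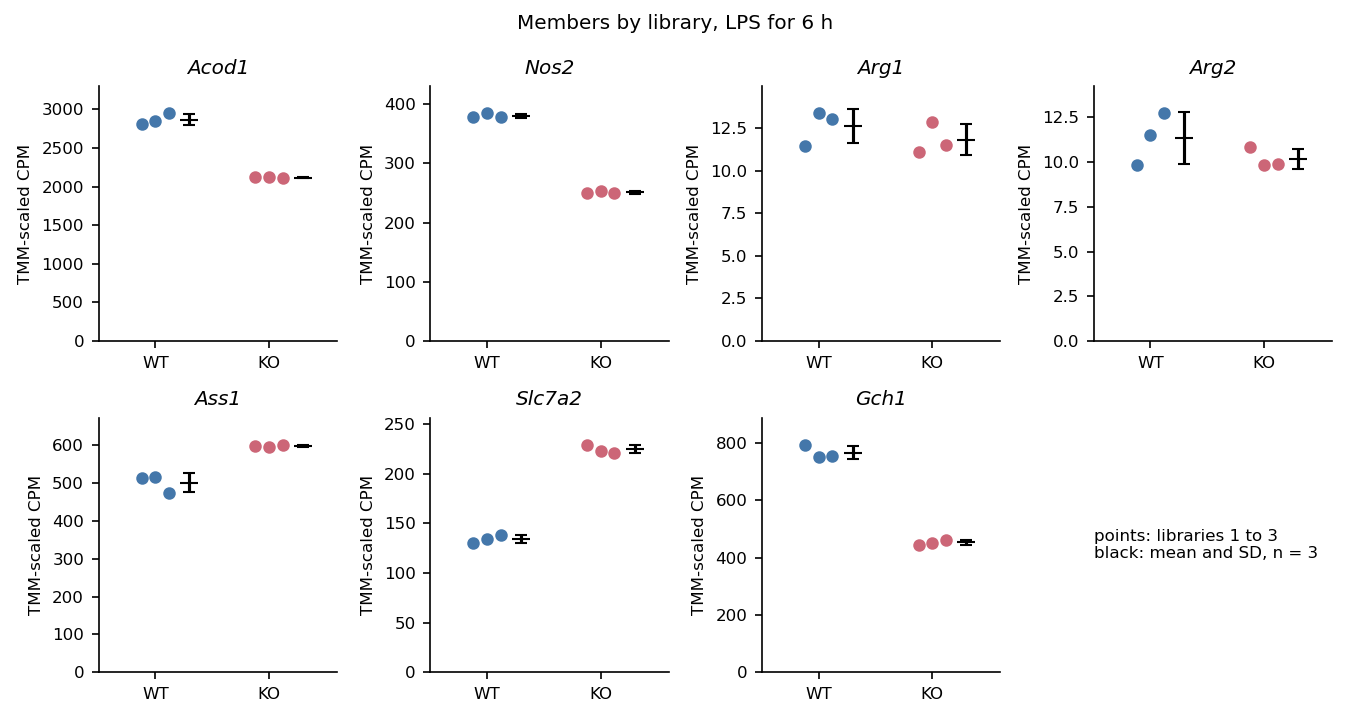
Level of each of the 7 genes in each library, as CPM (counts scaled to a common library total after TMM normalization), with the mean and SD of the 3 libraries of each genotype in black. KO libraries lie below all WT libraries for Acod1, Nos2 and Gch1, above them for Ass1 and Slc7a2, and overlapping with them for Arg1 and Arg2.

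Library totals were between 31976748 and 42448058 counts. Xbp1, the gene named in the labels, stood at 91.2, 88.2 and 87.5 CPM in the WT libraries. In the KO libraries it stood at 66.3, 65.5 and 65.6 CPM, lower but not absent. Its log2 fold change was -0.435 (edgeR adjusted p = 2.38e-08). Among all genes tested 20.9% were as low or lower, so this fall alone does not check the labels. Across genes, fold changes followed GC content (Spearman's rho 0.28 across 12971 genes) and gene length (rho 0.26), a description across genes, which are not independent replicates. Of all calls 51.3% were higher in KO, and 63.4% with library totals as the scaling, which moved the median of all genes to 0.11. Values with the trend removed or with that scaling are given where they change a call, a direction or the size by over 1.5 times.

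RefSeq promoters were available for 3 of the 7 genes, on GRCm38.p6, the assembly called mm10. Nos2, Slc7a2, Arg1 and Arg2 had none, and all 3 available promoters are shown, whatever the direction of the gene. Each runs 5′ to 3′ along the gene's strand, from 250 bases before the RefSeq start to 50 after it. Capitals mark matches, on either strand, to the TATA box letters TATAAA, to the CCAAT box, or to ACGTG, a core found in some E-boxes and in known sites of XBP1 and hypoxia-inducible factors.
Acod1, chr14:103046762-103047061, plus strand: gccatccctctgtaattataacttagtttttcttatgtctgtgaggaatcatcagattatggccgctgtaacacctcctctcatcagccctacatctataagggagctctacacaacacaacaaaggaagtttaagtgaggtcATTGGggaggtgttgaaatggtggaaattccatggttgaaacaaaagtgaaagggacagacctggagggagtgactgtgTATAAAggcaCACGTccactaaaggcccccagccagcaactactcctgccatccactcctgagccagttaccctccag
Gch1, chr14:47189364-47189663, minus strand: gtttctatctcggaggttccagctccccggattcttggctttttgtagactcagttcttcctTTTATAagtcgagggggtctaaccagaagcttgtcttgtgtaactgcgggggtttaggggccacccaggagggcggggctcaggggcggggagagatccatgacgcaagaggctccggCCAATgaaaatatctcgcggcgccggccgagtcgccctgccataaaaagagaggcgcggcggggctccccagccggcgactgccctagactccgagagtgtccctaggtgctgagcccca
Ass1, chr2:31470020-31470319, plus strand: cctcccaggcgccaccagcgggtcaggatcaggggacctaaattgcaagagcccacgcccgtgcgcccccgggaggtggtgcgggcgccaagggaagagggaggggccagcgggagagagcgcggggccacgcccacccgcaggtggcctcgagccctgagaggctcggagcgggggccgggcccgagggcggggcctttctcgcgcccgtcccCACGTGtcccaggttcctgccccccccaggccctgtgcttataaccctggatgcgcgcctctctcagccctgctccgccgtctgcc

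The Acod1 window was the least GC-rich, at 47% with 2 CG dinucleotides, and held TATAAA at position -28 from the start. It also held a CCAAT match, on the minus strand, at -107, and ACGTG, on the minus strand, at -18. The Gch1 window had a GC content of 60.3% with 20 CG dinucleotides, a CCAAT match at -70 and TATAAA only far upstream, at -188 on the minus strand. The Ass1 window had a GC content of 74% with 27 CG dinucleotides, and the only match was the palindrome CACGTG, which gives overlapping ACGTG matches on both strands at -36 and -35. Among all 32851 promoters of this length, whose median GC content was 52.7%, TATAAA occurred in 13.6%, CCAAT in 37.4% and ACGTG in 19.6%. None of the 3 windows matched GGGNNNNTCC (kappa B, 19.2% of all promoters), GAAANNGAA (IRF, 8.56%), TTCNNNGAA (GAS, 8.30%), TTGCNNAA (C/EBP, 10.8%) or TGANTCA (AP-1, 7.81%). A match is a description of letters, not a binding site, and the absence of a match in this window says nothing about the factor.

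Acod1 (ENSMUSG00000022126, chromosome 14, 103046977 to 103056573, plus strand) was by far the most abundant of the 7 genes per length. It stood at 1063, 1080 and 1113 FPKM in the WT libraries and 803, 805 and 799 FPKM in the KO libraries, where FPKM is the authors' count scaled by gene length and library total. That placed it at rank 65 of all rows in WT and rank 73 in KO. Every KO library was below every WT library, and the KO libraries were closer to each other than the WT libraries were. In CPM it fell from 2869 ± 72.2 to 2117 ± 9.69 (SD, n = 3 each), which is -0.44 on the log2 scale with an SE of 0.0240 (edgeR adjusted p = 1.53e-10). Among all genes tested 20.7% had a value as low or lower. In bulk RNA, fewer cells that express a gene and less RNA per cell cannot be told apart, here and below.

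Nos2 (ENSMUSG00000020826, chromosome 11, 78920787 to 78960254, plus strand) had 379.1, 384.8 and 378.6 CPM in the WT libraries. The KO libraries had 249.9, 253.2 and 249.9 CPM. Both groups were tight, with a coefficient of variation under that of every other member in WT (0.912%), and they were well apart. On the log2 scale KO differed from WT by -0.60, with an SE of 0.0298 (edgeR adjusted p = 4.91e-11). The other nitric oxide synthases, Nos1 and Nos3, did not pass the expression filter.

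Gch1 (ENSMUSG00000037580, chromosome 14, 47153895 to 47189413, minus strand), the entry enzyme of BH4 synthesis, had the largest fall of the 7, except with the trend removed, where Nos2 (-0.84) fell more than Gch1 (-0.79). Its level was 793, 749 and 756 CPM in WT and 445, 452 and 462 CPM in KO, with no overlap. The fold change on the log2 scale was -0.76, with an SE of 0.0307 (edgeR adjusted p = 4.73e-12), and 8.13% of all genes tested were as low or lower. Its introns hold the processed pseudogenes Gm49134 and Gm18811, which had at most 9 counts in a library and whose exons do not overlap those of Gch1.

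Slc7a2 (ENSMUSG00000031596, chromosome 8, 40862396 to 40922308, plus strand), the inducible cationic amino acid transporter, had the largest rise. It had 130.1, 133.8 and 138.3 CPM in WT and 228.9, 222.9 and 221.2 CPM in KO. All KO libraries exceeded all WT libraries. It rose by 0.74 on the log2 scale, with an SE of 0.0352 (edgeR adjusted p = 2.97e-11), and 7.91% of all genes tested were as high or higher. The lincRNA Gm26584 on the opposite strand overlaps its exons, and although strandedness of the counts is not given, that gene had at most 7 counts in a library. Per length, Slc7a2 made up between 96.3% and 97.4% of the summed FPKM of the cationic transporter genes Slc7a1, Slc7a2 and Slc7a3 in every library of either genotype.

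Ass1 (ENSMUSG00000076441, chromosome 2, 31470207 to 31520672, plus strand) encodes argininosuccinate synthase. It had 513, 516 and 472 CPM in the WT libraries and 596, 593 and 600.1 CPM in the KO libraries. WT replicate 3 was the lowest library, and all KO libraries were above all WT libraries. The rise was small, 0.25 on the log2 scale with an SE of 0.0341 (edgeR adjusted p = 6.65e-06), and with 31.6% of all genes tested as high or higher. The processed pseudogene Gm5424 on chromosome 10 matches Ass1 transcripts at 99.5% identity over 1240 bases, so reads may be split between them. Gm5424 had 136.7, 130.4 and 152.5 CPM in WT and 155.1, 168.9 and 151.5 CPM in KO, and its genotypes overlapped, although it was called higher in KO (0.18, edgeR adjusted p = 0.00668). With the counts of both summed, the log2 fold change was 0.24 (edgeR adjusted p = 1.28e-06).

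Arg1 (ENSMUSG00000019987, chromosome 10, 24915221 to 24927484, minus strand), the cytosolic arginase, was scarce in both genotypes. It had 11.5, 13.4 and 13.1 CPM in WT and 11.1, 12.9 and 11.5 CPM in KO, and the groups overlapped. The log2 fold change of -0.09 (edgeR adjusted p = 0.343) had a 95% interval from -0.26 to 0.08, which does not show that the genotypes are alike. Its sign was positive with library totals as the scaling (0.02) and with the trend removed (0.06).

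Arg2 (ENSMUSG00000021125, chromosome 12, 79130777 to 79156301, plus strand), the mitochondrial arginase, had 9.82, 11.5 and 12.7 CPM in WT and 10.8, 9.82 and 9.89 CPM in KO. The WT libraries spanned the KO libraries. The log2 fold change was -0.16 (edgeR adjusted p = 0.150; 95% interval -0.35 to 0.04). Without WT replicate 1, the lowest WT library, it was -0.25 (edgeR adjusted p = 0.0194). Removing the trend turned it to 0.19 (edgeR adjusted p = 0.0804), and library totals as the scaling left it at -0.04 (edgeR adjusted p = 0.713). Its last 285 bases overlap exons of Vti1b, a vesicle trafficking gene on the opposite strand with between 2583 and 3840 counts per library. Reads from that stretch cannot be assigned to either gene without strand information, and Vti1b itself, named for this overlap, changed by -0.12 (edgeR adjusted p = 0.0244).

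**Figure D2:**
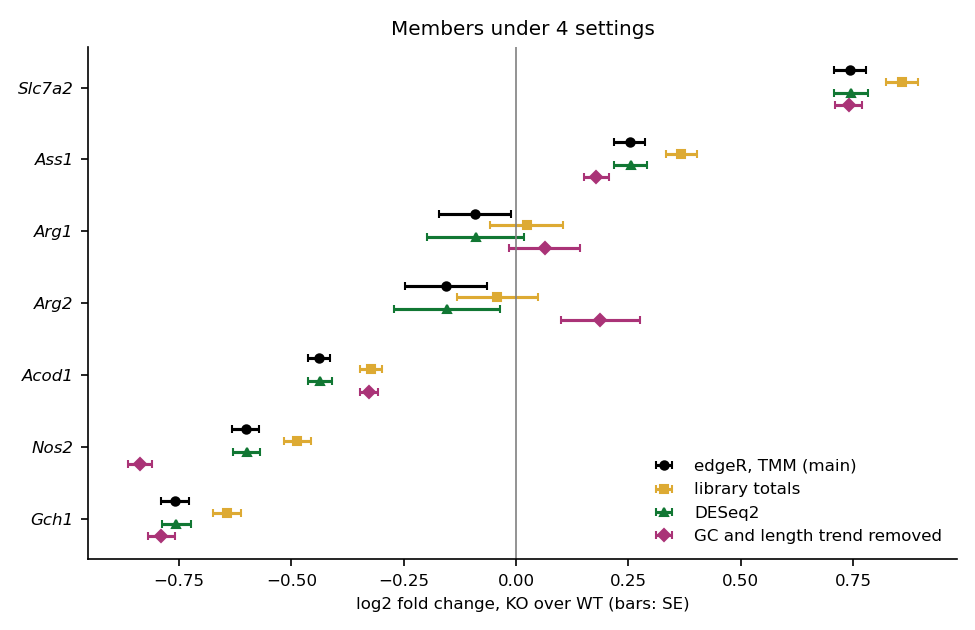
Log2 fold change of KO over WT for each of the 7 genes under 4 settings, with bars for the standard error. Gch1, Nos2 and Acod1 lie below 0 and Ass1 and Slc7a2 above 0 under all 4, while Arg1 and Arg2 lie on either side of 0.

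In order of FPKM the 7 genes ran Acod1, Ass1, Gch1, Nos2, Slc7a2, Arg2 and Arg1 in both genotypes. The WT means were 1085, 206, 122, 85.6, 14.6, 7.89 and 5.63 FPKM. In KO they were 802, 246, 72.0, 56.5, 24.4, 7.08 and 5.28 FPKM. No neighbours in that order overlapped between libraries of the same genotype. FPKM divides by the authors' gene length, 9135 bases for Slc7a2, so a gene transcribed mainly as shorter isoforms is understated. The distance between Ass1 and Gch1 was wider in KO, and that between Nos2 and Slc7a2 was narrower.

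**Figure D3:**
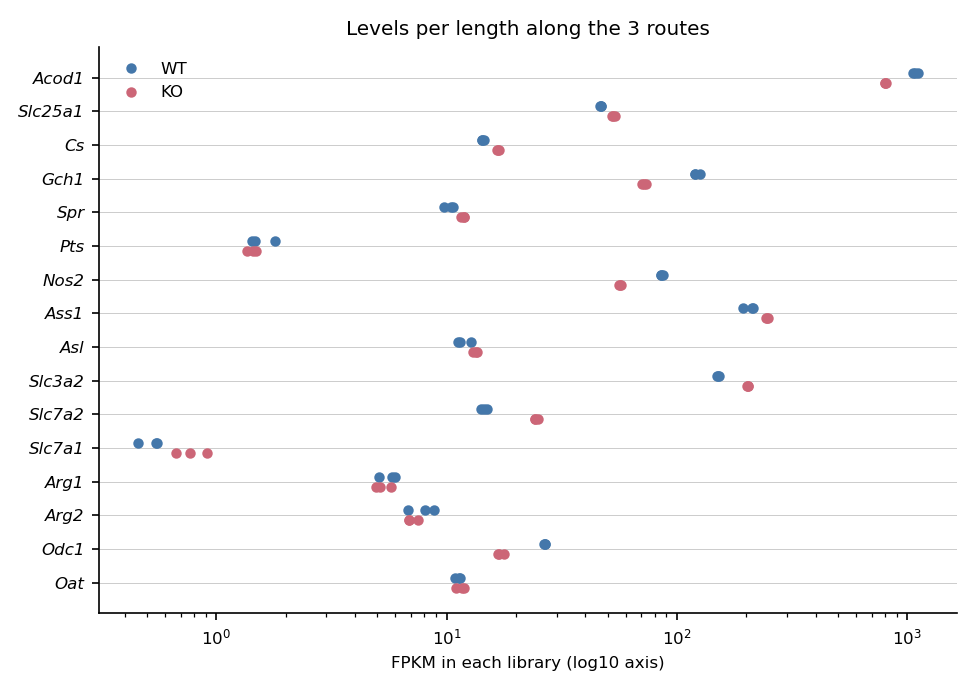
FPKM in each library (log10 axis) for the 7 genes and their partners along the itaconate, nitric oxide and arginine routes, with WT in blue and KO in red. Acod1 is the most abundant gene shown, Slc7a1 the least, and the arginases lie below 10 FPKM in every library.

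Ratios between the genes inside each library do not depend on how libraries are scaled, though they can carry the GC and length trend, and 7 of them were compared. The FPKM of Nos2 was 16.7, 14.5 and 14.6 times that of Arg1 in the WT libraries and 11.3, 9.94 and 10.9 times in the KO libraries. The ratio of Nos2 to Arg2 was between 9.62 and 12.5 in WT and between 7.47 and 8.34 in KO. Both ratios were lower in every KO library, by 0.51 and 0.45 on the log2 scale, and the differences were -0.90 and -1.02 with the trend removed, an alternative added after seeing the data. Slc7a2 stood at 0.166, 0.168 and 0.177 times Nos2 in WT and at 0.443, 0.425 and 0.428 times in KO, the widest shift of the 7 ratios, 1.34 on the log2 scale. Ass1 over Nos2 moved from between 2.28 and 2.48 to between 4.28 and 4.39.

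Ratios among the genes that fell depended on the trend. Acod1 over Nos2 was between 12.4 and 13.1 in WT and between 14.1 and 14.3 in KO, a difference of 0.16 on the log2 scale, or 0.51 with the trend removed. Gch1 over Nos2 was between 1.37 and 1.48 in WT and between 1.26 and 1.31 in KO (log2 difference -0.16), and this turned to 0.05 with the trend removed. For these 6 ratios the genotypes did not overlap. All 6 contain Nos2, so they are not independent of each other or of the fall of Nos2 itself. For Slc7a2 and Ass1 over Nos2 this follows from the single genes. Slc7a2 and Ass1 were higher, and Nos2 lower, in every KO library. Each of the 6 ratios gave p = 0.1 in the two-sided exact permutation test over libraries, the smallest that 3 against 3 allows. After Benjamini-Hochberg adjustment over 7 ratios that permutation p was 0.117. Arg1 over Arg2 was between 0.657 and 0.749 in WT and between 0.659 and 0.839 in KO, with overlap (exact permutation p = 0.6), and its log2 difference of 0.06 turned to -0.12 with the trend removed. None of the ratios can pass a threshold of 0.05 in this design.

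**Figure D4:**
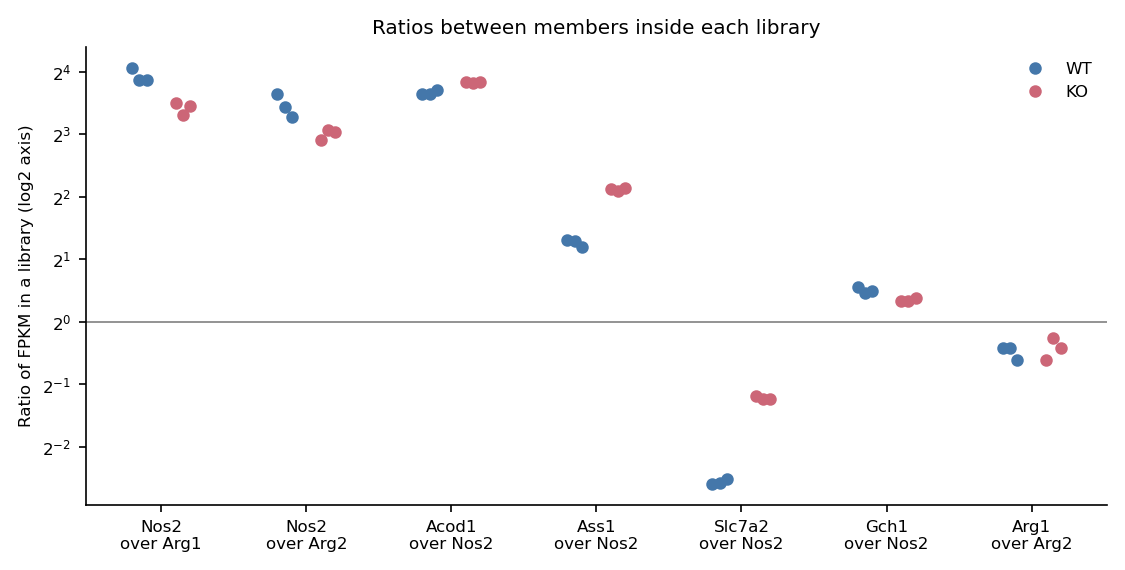
Ratio of the FPKM of 2 genes inside each library (log2 axis), with 3 WT libraries in blue and 3 KO libraries in red for each pair. KO and WT libraries are separate for every pair but Arg1 over Arg2, and the widest gap is that of Slc7a2 over Nos2.

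Around the itaconate step, mitochondrial and plasma membrane carriers of dicarboxylates showed the largest rises. Of 18 listed genes, all tested, 9 rose and 7 fell, beside 31.5% and 29.8% of all genes tested. Their median log2 fold change was 0.10. Slc13a3, a plasma membrane dicarboxylate transporter, rose from 6.19 ± 0.325 to 12.6 ± 0.528 CPM (log2 fold change 1.02, edgeR adjusted p = 1.29e-08). Slc25a10, the mitochondrial dicarboxylate carrier, had 199.8, 192.1 and 182.1 CPM in WT and 360.03, 372.2 and 351.9 CPM in KO. It rose by 0.92 on the log2 scale and the 2-oxoglutarate carrier gene Slc25a11 by 0.70. The citrate carrier gene Slc25a1 and the citrate synthase gene Cs rose by 0.17 and 0.22, and both values were 0.10 with the trend removed.

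The largest falls in that list were of scarce transcripts. Suclg2, a succinyl-CoA ligase subunit gene, went from 2.52 ± 0.355 CPM down to 1.59 ± 0.127 CPM, or -0.66 on the log2 scale. Clybl, whose product breaks down a CoA derivative of itaconate, fell by 0.48, a call lost with the trend removed (-0.17, edgeR adjusted p = 0.262). Abcg2, the gene of an exporter, dropped from 1.82 ± 0.187 CPM to 1.15 ± 0.0817 CPM, also -0.66.

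In BH4 synthesis genes after Gch1 moved in both directions. Of 9 listed genes 7 were tested, 4 fell and 1 rose, beside 29.8% and 31.5% of all genes tested. Their median was -0.24. Pts, the enzyme after Gch1, averaged 9.65 ± 1.27 CPM in WT against 8.77 ± 0.407 CPM in KO (edgeR adjusted p = 0.198), with a log2 fold change of -0.14 that became 0.04 when the trend was removed. Spr, sepiapterin reductase, rose by 0.19, and by 0.05 (edgeR adjusted p = 0.305, no call) with the trend removed. Pcbd2, a pterin dehydratase gene, fell by 0.53, with -0.28 once the trend was removed, and Akr1b3, an aldose reductase gene, by 0.46. Gchfr, the feedback regulator of GCH1, averaged 0.121 CPM in WT and did not pass the filter.

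Partners of nitric oxide synthase moved both ways. Of 14 listed genes 9 were tested, of which 3 rose and 4 fell, beside 31.5% and 29.8% of all genes tested. Their median was 0.06, and 2 fell with library totals as the scaling or the trend removed. Nosip, which encodes a nitric oxide synthase interacting protein, rose from 58.1 ± 1.16 to 85.8 ± 1.53 CPM (log2 fold change 0.56). Txnrd1, thioredoxin reductase, rose by 0.36 (0.14 with the trend removed) and the thioredoxin gene Txn1 fell by 0.36. Removal of the trend left Txn1 at -0.0033 (edgeR adjusted p = 0.909). The calmodulin gene Calm2, whose product is a subunit of active NOS2, fell by 0.35. Calm2 was called in the opposite direction with the trend removed (0.13, edgeR adjusted p = 0.0139). Hmox1, heme oxygenase, was called at 0.06 (edgeR adjusted p = 0.0461), a call that 6 alternatives ended, among them leaving out WT replicate 1 or any KO replicate (0.05 to 0.07).

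Genes listed for arginine supply moved both ways. The list also holds genes of dimethylarginine breakdown and arginine sensing, of which Ddah1, Ddah2 and Slc38a9 fell. Of 14 listed genes 12 were tested, 7 rose and 5 fell, with a median of 0.23, beside 31.5% and 29.8% of all genes. Once the trend was removed 4 rose and 5 fell. Slc3a2, the heavy chain shared by several amino acid exchangers, rose from 535 ± 3.74 to 721 ± 5.46 CPM (log2 fold change 0.43, and 0.26 with the trend removed). Slc7a6, a light chain of such an exchanger for cationic amino acids, rose from 3.98 ± 0.211 to 6.03 ± 0.740 CPM. Slc7a1, the constitutive arginine transporter, had 6.39, 5.31 and 6.46 CPM in WT and 7.76, 10.5 and 8.91 CPM in KO (log2 fold change 0.58), and with the trend removed the call was lost (0.25, edgeR adjusted p = 0.0827). Asl, which follows Ass1, rose by 0.17 but was at -0.10 (edgeR adjusted p = 0.0806) with the trend removed.

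The dimethylarginine hydrolase genes, whose products break down endogenous inhibitors of nitric oxide synthase, both fell. Ddah2 fell from 4.13 ± 0.643 to 2.00 ± 0.344 CPM (log2 fold change -1.04, edgeR adjusted p = 4.52e-05). Ddah1 fell by 0.65, a call lost without WT replicate 2 (-0.55, edgeR adjusted p = 0.0613) and without KO replicate 2 (-0.44, edgeR adjusted p = 0.0785). Slc38a9, a lysosomal arginine sensor gene, fell by 0.37.

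Downstream of the arginases, polyamine and proline genes moved both ways. Of 22 genes listed for polyamines and proline, not all of which act on ornithine, 21 were tested, 8 fell, 4 rose and 9 were not called. Among all genes tested 29.8% fell and 31.5% rose. The median of the list was -0.04, and 8 rose with library totals as the scaling. Sat1, which acetylates spermidine and spermine for breakdown and export, had 498, 483 and 511 CPM in WT and 248, 240.2 and 251 CPM in KO. No KO library came near a WT library, and the gene fell by 1.01 on the log2 scale, with an SE of 0.0325 (edgeR adjusted p = 3.49e-13). Odc1, ornithine decarboxylase, had 91.6, 91.6 and 90.8 CPM in WT and 61.0, 57.4 and 57.8 CPM in KO (log2 fold change -0.64). The spermine synthase gene Sms fell by 0.71 and the antizyme inhibitor gene Azin2 by 0.81. Odc1, Sat1 and Sms have near-identical copies, and with these summed their values were -0.62, -1.01 and -0.72. Calm2, Suclg2 and Txn1 have such copies too, and summing changed no call.

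A few genes of that list rose. Atp13a2, a lysosomal polyamine exporter gene, rose from 172 ± 8.07 to 315 ± 18.1 CPM (log2 fold change 0.88, and 0.53 with the trend removed). The proline synthesis gene Pycrl rose by 0.17 and was not called without KO replicate 3 (0.14, edgeR adjusted p = 0.0654). Library totals as the scaling raised Pycrl to 0.28, Hmox1 to 0.18, Spr to 0.31, Asl and Slc25a1 to 0.29 and Cs to 0.34. Oat, ornithine aminotransferase, averaged 26.6 ± 0.621 CPM in WT against 27.5 ± 1.14 CPM in KO (edgeR adjusted p = 0.470). It was called higher with library totals as the scaling (0.16, edgeR adjusted p = 0.0146) and after removal of the trend (0.20, edgeR adjusted p = 0.0031).

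**Figure D5:**
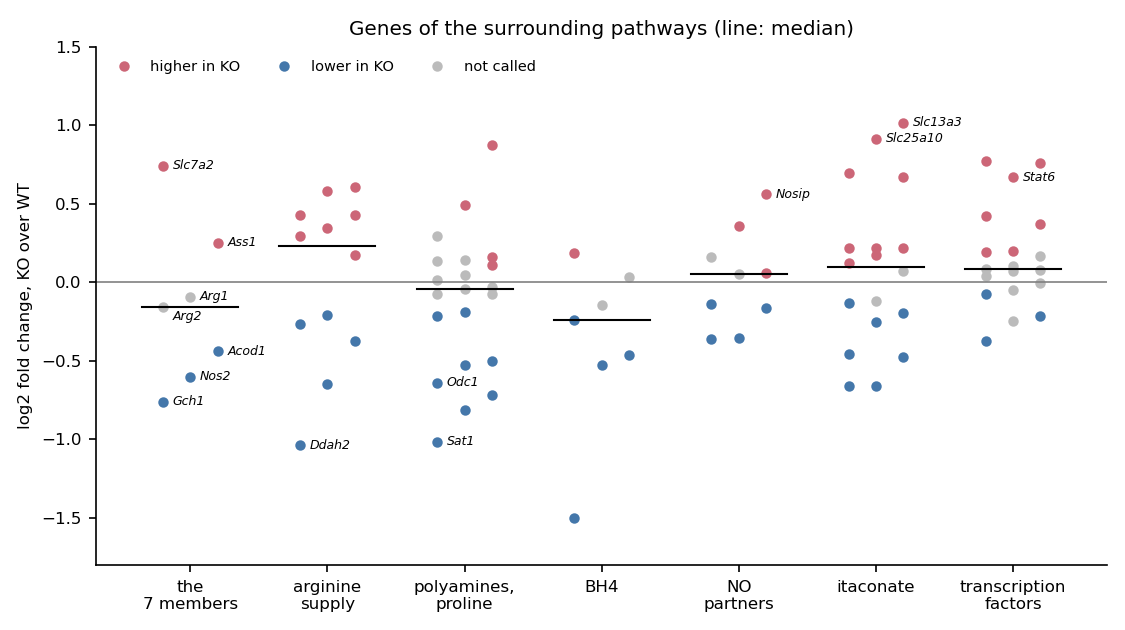
Log2 fold change of KO over WT for every tested gene of the 7 followed here and of 6 surrounding gene lists, with red for called higher, blue for called lower, grey for not called and a line at each median. Slc13a3 and Slc25a10 are the highest points of the itaconate list, and Ddah2 and Sat1 are the lowest of theirs.

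Transcription factors known to act at these genes were listed as well, 20 in all with 19 tested. Of these 7 rose and 3 fell (median 0.09), beside 31.5% and 29.8% of all genes tested. With library totals as the scaling 12 rose. Irf1 and Irf8, interferon regulatory factor genes, fell by 0.22 and 0.37, and by more with the trend removed (-0.41 and -0.66). Irf1 was at -0.10 with library totals as the scaling. Stat6, which carries interleukin-4 signals, rose from 102.0 ± 0.996 to 162 ± 5.40 CPM (log2 fold change 0.67, and 0.44 with the trend removed). Jun and Fos, which form AP-1, rose by 0.77 and 0.76, and Nfkb1 rose by 0.37.

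Cebpb, which acts at Arg1 and Nos2, had 458 ± 75.1 and 515 ± 34.3 CPM (log2 fold change 0.17, edgeR adjusted p = 0.0756), and Hif1a had 0.09 (edgeR adjusted p = 0.0660). Both were called higher with library totals as the scaling (0.29 and 0.20) and with the trend removed (0.20 and 0.25). Cebpb was also called without WT replicate 1 (0.28) or KO replicate 2 (0.23), and Hif1a without WT replicate 3 (0.12). Without WT replicate 3 Cebpb stood at 0.05, and without WT replicate 1 Hif1a stood at 0.05. Spi1 was called at -0.08 (edgeR adjusted p = 0.0419), a call that 7 alternatives ended, with -0.04 without WT replicate 1 and 0.04 with library totals as the scaling. Il10, an anti-inflammatory cytokine gene, had 101.3, 104.5 and 109.0 CPM in WT and 19.6, 19.4 and 19.4 CPM in KO, or -2.43 on the log2 scale (edgeR adjusted p = 4.43e-16).

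Markers of other cells differed between the genotypes too, beside 31.5% of all genes tested that rose and 29.8% that fell. The macrophage list had 9 of 10 genes tested, with 5 that rose and 3 that fell. Its summed level went from between 37711 and 39189 CPM in WT to between 20418 and 21092 CPM in KO, most of it Lyz2. Lyz2, 1 of the 3 that fell, went from 29831 ± 761 CPM in WT to 11515 ± 348 CPM in KO. The sum therefore follows Lyz2 and does not show the direction of the other macrophage markers. Of 14 neutrophil markers 10 were tested, 9 rose and 1 fell. Their summed level was between 292 and 313 CPM in WT and between 418 and 434 CPM in KO, while Ly6g, Mpo, Cxcr2 and Retnlg were near 0 and did not pass the filter. Of 12 stromal markers 11 were tested, 7 fell and 1 rose, with a summed level between 564 and 577 CPM in WT and between 302 and 311 CPM in KO. The largest part of that sum was Acta2, 1 of the 7 that fell, so the sum leans on it. Acta2 went from 347 ± 6.59 CPM in WT to 151 ± 0.528 CPM in KO. Markers of B, T and NK cells summed to at most 5.81 CPM and those of mast, basophil and erythroid cells to at most 1.99 CPM, with Ncr1 and Fcer1a at 0 in every library. The part of other cells in the changes of the 7 genes was not tested.

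For each of the 7 genes, the genes with the closest profiles over the 6 libraries were found. Likeness was the root mean square difference of log2 CPM centred on each gene's mean, among 10901 genes with at least 1 CPM on average. For Acod1 these included Casp8 and Rps13, at 0.0151 and 0.0153, and for Nos2 S100a1, Psma2 and Rab22a, at 0.0147 to 0.0170. For Gch1 they were 1110038F14Rik, Rab28 and Cacybp, at 0.0220 to 0.0302. Slc7a2 was followed most closely by Cpd, a carboxypeptidase gene, then Numa1 and Hnrnpm, at 0.0191 to 0.0227, and among those of Ass1 were Gtpbp1 and Flot1, at 0.0123 and 0.0167. The arginases had looser neighbours, Acat1, Rab3gap1 and Mnat1 for Arg1, at 0.0335 to 0.0397, and Gpr89, Gm13991 and Rbbp9 for Arg2, at 0.0385 to 0.0408. Both arginases had between 355 and 508 counts in a library, the fewest of the 7, so counting noise weighs more in their profiles. With 2 genotypes, a close profile requires a similar fold change, and shared regulation was not tested.

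The authors' deposited table gives log2 fold changes of -0.44 for Acod1, -0.60 for Nos2, -0.76 for Gch1, 0.745 for Slc7a2 and 0.255 for Ass1. For the arginases the authors' deposited table gives -0.09 for Arg1 and -0.15 for Arg2, with adjusted p-values of 0.547 and 0.308.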

How the data were processed

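RNA sequencing libraries from LPS-stimulated mouse macrophages, 3 WT and 3 KO, were made from total RNA with an NEBNext Ultra kit (labels' protocols). The aligner Bowtie, version 0.12.2, and 2 builds, mm8 and mm10, appear in the submitters' processing notes without a role. No source states RNA selection, strandedness or the gene counter. Counts were deposited as whole numbers for every gene with no scaling. FPKM was deposited by the authors beside them, divided by gene length and library total. A pair of signal columns, deposited as each genotype's mean after the authors' normalization, was not used. The deposited log2 fold changes and p-values are the authors', from a tool that the headers do not name.

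Coordinates were identical to GENCODE vM21 on mm10 for 98.3% of 54495 shared identifiers. Counts were tested with edgeR 4.0.16 in R 4.3.3 (quasi-likelihood, TMM, default expression filter, genotype only). The SE is the absolute log2 fold change over the square root of F. The test was checked on simulated data in which a small share of genes was changed, with as many up as down and no GC or length trend. That check therefore does not cover the scaling or the trend. DESeq2 1.42.0, other scalings and filters, a replicate block, removal of a spline trend with GC content and length, summed near-identical copies (BLAST 2.17.0, at least 95% identity) and leaving out each library were alternatives. A floor of 3 counts lay between 0.0707 and 0.0938 CPM, depending on the library. No library was a copy of another: chi-square over its degrees of freedom was at least 2.77 for every within-genotype pair. Members and lists were chosen with earlier results of these data known. Genes named are the 7 members, up to 3 called genes with the largest rises and falls in each pathway list, direct partners, Xbp1 and Il10, and for each member the 3 genes of closest profile. Some genes this rule names are not reported here but stay in all counts over lists. Vti1b and Gm5424 were added after their values were seen, as were genes in counts of the cell marker lists. Promoters came from RefSeq tables.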

Additional observations from a re-analysis of the deposited data

How the results depend on the processing

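The calls and directions of Acod1, Nos2, Gch1, Slc7a2 and Ass1 held under all 9 alternative settings and with each library left out. Leaving out each library in turn gave -0.45 to -0.42 for Acod1, -0.61 to -0.59 for Nos2, -0.77 to -0.73 for Gch1, 0.72 to 0.77 for Slc7a2 and 0.21 to 0.28 for Ass1. It gave -0.16 to -0.04 for Arg1 and -0.254 to -0.0673 for Arg2, and Arg1 over Arg2 ran from -0.0277 to 0.147 on the log2 scale, so its direction rests on single libraries. Library totals as the scaling turned the sign of Arg1 (0.0236) and Spi1 (0.0392). Removal of the GC and length trend, alone and then with the replicate block, turned that of Arg1 (0.0637 and 0.0615), Arg2 (0.188 and 0.188), Calm2 (0.127 and 0.126), Asl (-0.0969 and -0.0954) and Pts (0.0358 and 0.0478). For the ratios, removal of the trend, added after seeing the data, gave -0.900 for Nos2 over Arg1, -1.02 for Nos2 over Arg2, 0.509 for Acod1 over Nos2, 1.02 for Ass1 over Nos2 and 1.58 for Slc7a2 over Nos2, and turned Gch1 over Nos2 (0.0469) and Arg1 over Arg2 (-0.124). The cause was not tested.

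Over all genes, 4115 were higher and 3904 lower in KO. Library totals as the scaling gave 5120 and 2956, so 63.4% of calls were higher against 51.3%, and moved the median of all genes to 0.11. That scaling raised the count of rises from 4 to 8 in the polyamine and proline list and from 7 to 12 among transcription factors, and lowered the falls among nitric oxide partners from 4 to 2. Removal of the trend also left 2 falls there, 4 rises instead of 7 in arginine supply and 0 instead of 1 in BH4 synthesis. Same-numbered libraries had correlations of 0.008, 0.06 and 0.064, and differently numbered ones of -0.086 to 0.034. WT replicate 1 correlated more with KO replicate 2 (0.034), while 0.06 and 0.064 were above all the others. With 3 libraries per genotype, these small values cannot settle whether the replicate numbers pair libraries. A replicate block gave 4116 higher and 3897 lower genes and changed 2 calls among the genes named, Hif1a (0.09) and Cebpb (0.18), both then called higher. With the trend removed as well, Abcg2 (-0.49) was no longer called. Of the 42 other genes named and tested, 27 kept call and direction throughout. Depth limits the named genes under 5 CPM most, such as Abcg2, Suclg2 and Ddah1.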
